A study of Homo sapiens with 8 samples.

Results

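The complement system is a cascade of blood and tissue proteins that tags surfaces for removal and can pierce membranes. The proteases C1R and C1S start the classical pathway, C3 is the component on which the pathways meet, and CFB and CFD build the alternative pathway convertase that cleaves more C3. Host cells hold the cascade in check with CFI, a plasma protease that cuts C3b, and with the surface regulators CD46, CD55 and CD59. In the kidney, unchecked complement on glomerular cells is known from several glomerulopathies. The 9 genes described here, CD46, CD55, CD59, C3, CFB, CFI, CFD, C1R and C1S, were picked out by gene name from a table of 29004 loci. They matched 15 rows, of which 6 were copies of CFB on alternative haplotypes of chromosome 6 that were listed at 0 in both groups. These copies were left aside, so that each gene is described by 1 row.

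The samples came from 1 stable line of AB8/13, an immortalized human podocyte line kept at the growth-permissive temperature, which carries a lentiviral doxycycline-inducible construct for wild-type LATS2. LATS2 is a Hippo pathway kinase that keeps the co-activators YAP and TAZ out of the nucleus. Doxycycline at 125 ng/mL was given for 8 h to switch the construct on in 4 samples (LATS2 OE), and the drug was withheld from 4 others (Untreated), so that the drug and the construct cannot be told apart. RNA sequencing of poly(A) RNA was used to ask which genes respond early to Hippo pathway activation. The authors deposited 1 pooled FPKM value per group (a read count scaled to transcript length and library size), so no value of a single sample, no SD and no test across samples can be given, and how the reads of the run were split among the samples is not stated. The differences below are therefore differences between 2 pooled values, and none of them was set against the spread between replicates.

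In the deposited table the decimal point was lost from cells of at least 1 with 3 or more decimals, while cells below 1 were intact. For each gene the points were placed so that the groups differed least. For the 8 complement genes of at least 1 FPKM, the next possible placing would mean a change of between 8.22-fold and 9.83-fold. Among 8080 loci below 1 FPKM in both groups, whose cells were intact, 0.21% differed by 8.22-fold or more, but these loci are of another level, and a locus with 1 group above 1 FPKM is not among them. The ratios of the 8 genes therefore rest on this placing, which was not tested at their level, and the level itself often remained uncertain by a power of 10. LATS2 shows where this rule ends. Its digits gave a ratio of 2.01, and ratios of 201, 20.1, 0.201 and 0.0201 are also possible, so the digits alone settle neither its size nor its direction.

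With the points placed in this way, none of the 9 complement genes differed between LATS2 OE and Untreated by 1.5-fold or more. CD55, which encodes decay-accelerating factor, the surface protein that takes C3 convertases apart, stood lowest, at 82.2% of its untreated value. C3 stood highest, at 113% of its untreated value. The other 7 genes lay between 90.8% for CFD and 106% for CD59. At 1.5-fold, 15.3% of the 20636 loci with values above 0 in both groups and 3.15% of the 12218 loci that reached 1 FPKM in each group were past the threshold, so that the count of 0 sets these 9 genes apart from neither background. The median log2 ratio of the 9 genes was 0.03, with 5 genes above and 4 below 0, and that of all loci above 0 in both groups was 0.0064. Without regard to direction, the median log2 difference was 0.0672 for the 8 genes of at least 1 FPKM and 0.0731 for all loci of that level.

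**Figure D1:**
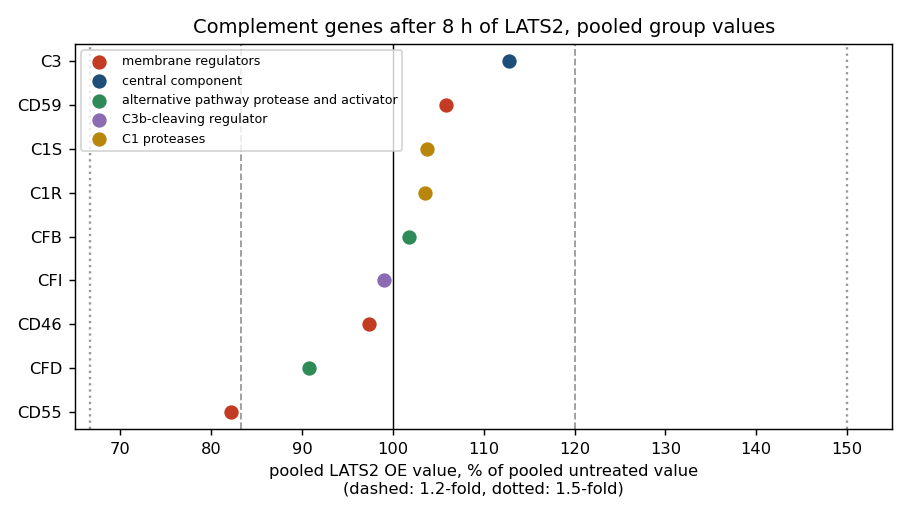
Pooled LATS2 OE value of each of the 9 complement genes as a percentage of its pooled untreated value, on a linear axis, with 1 point per gene colored by role. Dashed lines mark 1.2-fold and dotted lines 1.5-fold differences. CD55 alone lies outside the dashed lines, at 82.2%, and the points carry no error bars because the table holds 1 value per group.

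Among the surface regulators, CD55 and CD46 had lower and CD59 had higher pooled values with LATS2. These proteins protect the cell that carries them at different steps. CD55 and CD59 are tethered by a lipid anchor, and CD46 spans the membrane. CD55 had the digits of 1.42 FPKM in Untreated and of 1.16 FPKM in LATS2 OE, at 1, 10 or 100 times this level. This is a ratio of 0.822 and a log2 ratio of -0.28, or 1.22-fold lower with LATS2. It was the only one of the 9 genes past 1.2-fold, a threshold that 12.8% of the loci of at least 1 FPKM passed in either direction and 6.57% as a decrease. A difference of this size or larger was present at 11.5% of these loci.

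CD46, or membrane cofactor protein, helps CFI to cut C3b on the cell surface. Its values were 51.3 FPKM in Untreated and 50.0 FPKM in LATS2 OE, or 5.13 and 5.00 FPKM if the point stood 1 place earlier, a log2 ratio of -0.04. CD59, or protectin, blocks the last step, in which the membrane attack complex forms. It had the digits of 1.56 FPKM in Untreated and of 1.65 FPKM in LATS2 OE, at 1, 10 or 100 times this level, a log2 ratio of 0.08. The log2 ratios of CD46 and CD59 were 0.25 and 0.37 above that of CD55. Whether the regulators differ in their response was not tested, since this needs values of single samples. The row of CD59 also carries the name C11orf91, and a further annotated gene on the same strand covers 24207 bases of it. Reads of any of these genes may therefore stand behind the values of this row.

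The lowest regulator, CD55, and CD46 lie in the same cluster of complement regulators on chromosome 1, with CR2, CR1 and CR1L between them. The row of CD55 spans 207494817 to 207536026 and that of CD46 spans 207925383 to 207968861 on the plus strand of hg19. Both are annotated as protein-coding genes. The row of CD59 spans 33719596 to 33758025 on chromosome 11, with CD59 itself on the minus strand.

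C3 and its convertase partners lay between 1.10-fold lower and 1.13-fold higher values with LATS2. C3 had 49.2 FPKM in Untreated and 55.6 FPKM in LATS2 OE, or 4.92 and 5.56 FPKM if the point stood 1 place earlier. Its log2 ratio of 0.17, or 1.13-fold higher with LATS2, was the largest increase among the 9 genes, and 89.0% of the loci of at least 1 FPKM had a lower ratio. CFB, the factor that binds C3b and forms the catalytic part of the alternative convertase, had the digits of 2.34 FPKM in Untreated and of 2.38 FPKM in LATS2 OE, at 1, 10 or 100 times this level. Its log2 ratio was 0.03. CFD, the protease that activates bound CFB, had the digits of 1.72 and 1.56 FPKM at the same 3 possible levels and a log2 ratio of -0.14, or 1.10-fold lower with LATS2. It had the second lowest ratio of the 9 genes, and 28.4% of the loci of at least 1 FPKM differed by as much or more.

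Some of these rows take in other genes. The row of C3 runs from 6677846 to 6720693 on chromosome 19, and GENCODE places C3 on the minus strand. The span given for CFD, 859665 to 893229 on the same chromosome, also holds MED16 on the opposite strand. MED16 has a row of its own with this same span, with a log2 ratio of -0.03. CFB lies on the plus strand of chromosome 6 from 31913721 to 31919861, where an annotated readthrough gene that begins upstream overlaps it. As the library kit does not mark strand, reads from overlapping genes on opposite strands cannot be told apart.

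CFI, the protease that inactivates C3b with the help of cofactors such as CD46, was the only one of the 9 genes below 1 FPKM, and its cells had kept their points. An annotated readthrough gene on the same strand overlaps nearly the whole row, so reads of either may stand behind its values. It had 0.711 FPKM in Untreated and 0.704 FPKM in LATS2 OE, a log2 ratio of -0.01. Of the 8080 loci below 1 FPKM in both groups, 97.5% differed by as much or more. CFI therefore had the lowest level of the 9 genes in both groups. For the others the order is only partly known. C3 and CD46 were at most 55.6 and 51.3 FPKM, and C1S was at most 16.4 FPKM, while CD55, CD59, CFB, CFD and C1R may have stood above or below these.

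**Figure D2:**
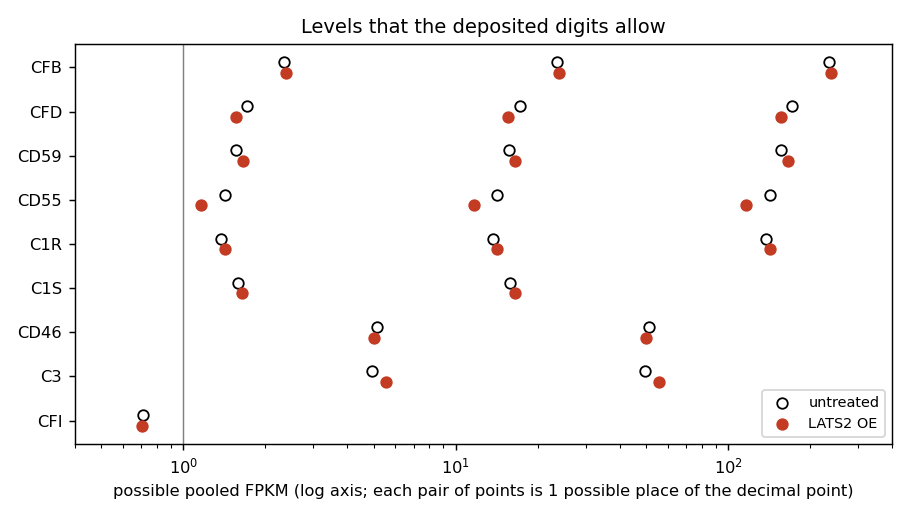
Pooled FPKM values that the deposited digits allow for each of the 9 genes, on a log axis, with untreated values as open and LATS2 OE values as filled points. Each pair of points is 1 possible place of the decimal point. CFI has a single pair, at 0.711 and 0.704 FPKM, left of the line at 1 FPKM, while the other 8 genes have 2 or 3 possible pairs with the same ratio.

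C1R and C1S, the proteases that sit together in the C1 complex, had nearly the same ratio. C1R had the digits of 1.37 FPKM in Untreated and of 1.42 FPKM in LATS2 OE, at 1, 10 or 100 times this level. C1S had 15.9 and 16.4 FPKM, or 1.59 and 1.64 FPKM if the point stood 1 place earlier. The log2 ratio was 0.05 for both genes, and 62.4% and 60.6% of the loci of at least 1 FPKM differed by as much as C1R and C1S or more. The rows lie close together on chromosome 12, with C1S on the plus strand from 7167980 to 7178335 and C1R on the minus strand from 7187515 to 7245043. C1RL, a related protease gene next to C1R on the same strand, had a log2 ratio of 0.13, and its annotated span covers 2861 bases of the row of C1R.

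**Figure D3:**
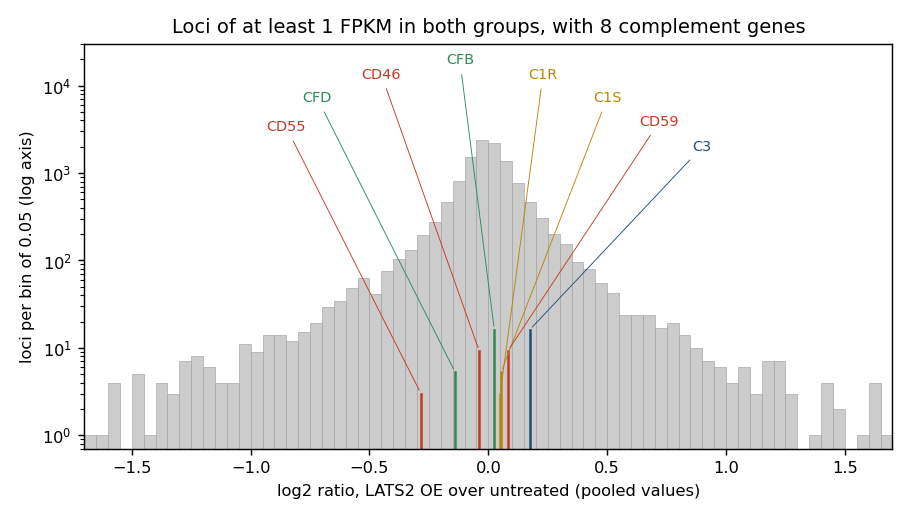
Number of loci per bin of log2 ratio (LATS2 OE over Untreated, pooled values) among the 12218 loci that reached 1 FPKM in each group, on a log axis. Colored lines mark the 8 complement genes of that level, and CD55 at -0.28 and C3 at 0.17 lie farthest from the center. By the way the points were placed, the ratios of these loci reach no further than 3.16-fold.

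Sequences before the start sites were read because YAP and TAZ act through TEAD factors, and because several complement genes are known targets of NF-kB and interferon. The set of RefSeq promoters used here held entries for 7 of the 9 genes (12 start sites, build GRCh38.p14). It had none for C3 and C1S, which were therefore not searched. The 250 bases before each start were searched on both strands for the TEAD letters GGAATG and the AP-1 letters TGANTCA. The interferon response letters GAAANNGAAA and the NF-kB consensus were searched in the same way. In the order given, these letters stood before 11.9%, 6.59%, 3.02% and 9.95% of 34788 distinct promoter stretches of the same length. The stretch before CD55, the gene with the lowest ratio, held none of them. It is shown because CD55 led the differences (chr1:207321428-207321677, plus strand, GRCh38).

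CD55: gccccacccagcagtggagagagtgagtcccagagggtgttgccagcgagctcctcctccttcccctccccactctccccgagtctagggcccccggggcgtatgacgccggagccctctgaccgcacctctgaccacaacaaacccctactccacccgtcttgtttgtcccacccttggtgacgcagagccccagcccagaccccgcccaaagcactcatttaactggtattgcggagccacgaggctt

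The upstream start of C1R held the TEAD letters at 3 places, from 92 to 65 bases before the start. Of all stretches, 11.9% held these letters at least once and 0.0834% at 3 or more places. The cutoff of 3 equals the count of this stretch, which is 1 of 12 searched for several sets of letters. The share is therefore no test of enrichment. The stretch is shown with the TEAD letters in capitals (chr12:7092446-7092695, minus strand, GRCh38), and the second start of C1R held none. The row of C1R had a ratio of 1.04.

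C1R: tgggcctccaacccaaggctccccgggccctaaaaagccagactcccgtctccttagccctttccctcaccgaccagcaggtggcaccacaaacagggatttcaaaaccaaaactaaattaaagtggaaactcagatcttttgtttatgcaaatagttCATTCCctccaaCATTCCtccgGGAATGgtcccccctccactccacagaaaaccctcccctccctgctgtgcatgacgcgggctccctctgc

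The stretch before CFB held 1 match to the interferon response letters and 1 to the NF-kB consensus, both shown in capitals (chr6:31945845-31946094, plus strand, GRCh38). The row of CFB had a log2 ratio of 0.03. Matches to the AP-1 letters stood before 1 of the 4 starts of CD59, and the stretches before CD46, CFD and CFI held none of the letters searched. A match is a description of the sequence and does not show that a factor binds there.

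CFB: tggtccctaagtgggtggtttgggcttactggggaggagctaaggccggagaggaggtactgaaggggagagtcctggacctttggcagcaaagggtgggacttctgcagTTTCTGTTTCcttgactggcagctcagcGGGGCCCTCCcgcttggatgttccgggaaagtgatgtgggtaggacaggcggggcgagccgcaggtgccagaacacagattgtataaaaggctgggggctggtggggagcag

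The other complement genes were mostly listed at low levels or at 0 in these podocytes. Of 55 further genes of the pathway, 12 were listed at 0 in both groups and 11 at 0 in 1 group, with no more than 0.00787 FPKM in the other. For comparison, 20636 of all 29004 loci had values above 0 in both groups, and 12218 reached 1 FPKM in each. C4B had no row of its own name. Its near-identical copy C4A shared a row with C4B_2 and stood at 0.0415 and 0.0442 FPKM, so the level of either gene is uncertain. Another row named C4B_2, from 31982572 to 32003195 on chromosome 6, had 0.0145 FPKM in Untreated and 0.0104 FPKM in LATS2 OE. All 3 chains of C1Q, the recognition part of the C1 complex, were at 0 in both groups, unlike C1R and C1S. Of the terminal components, C5 had 0.801 and 0.898 FPKM and C8G had 0.475 and 0.590 FPKM, while C6, C7, C8A, C8B and C9 were at 0 in at least 1 group.

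Values above 0 in both groups were present for 31 of the 55 genes, of which 15 were higher and 16 lower with LATS2, with a median log2 ratio of -0.0058. None of the 8 genes that reached 1 FPKM in each group differed by 1.2-fold or more, against 12.8% of all loci of that level. A count of 0 does not set these 8 genes apart from that background. Among them were the surface regulator SUSD4 with a log2 ratio of -0.22, the integrin subunit ITGB2 with -0.19, the protease gene MASP2 of the lectin pathway with 0.17, and C1RL, C1QBP, CALR and CR1L between -0.06 and 0.13.

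Among the 23 genes below 1 FPKM in both groups, 5 differed by 1.5-fold or more, against 32.9% of all loci of that level. THBD, which encodes thrombomodulin, a surface receptor that also aids CFI, had 0.436 FPKM in Untreated and 0.231 FPKM in LATS2 OE. C4BPB, the beta chain of C4b-binding protein, had 0.248 and 0.153 FPKM. C5AR1, the receptor for the fragment C5a, had 0.0193 and 0.0327 FPKM, and the integrin subunit ITGAM had 0.0036 and 0.0159 FPKM. VTN, which encodes vitronectin, had 0.0071 and 0.0036 FPKM. C3AR1, the receptor for the fragment C3a, was higher with LATS2 at 0.843 against 0.566 FPKM, or 1.49-fold, just short of the threshold. At the levels of C5AR1, ITGAM and VTN a few reads can decide a ratio. For all of these genes the spread between replicates is unknown, and the differences were not tested.

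**Figure D4:**
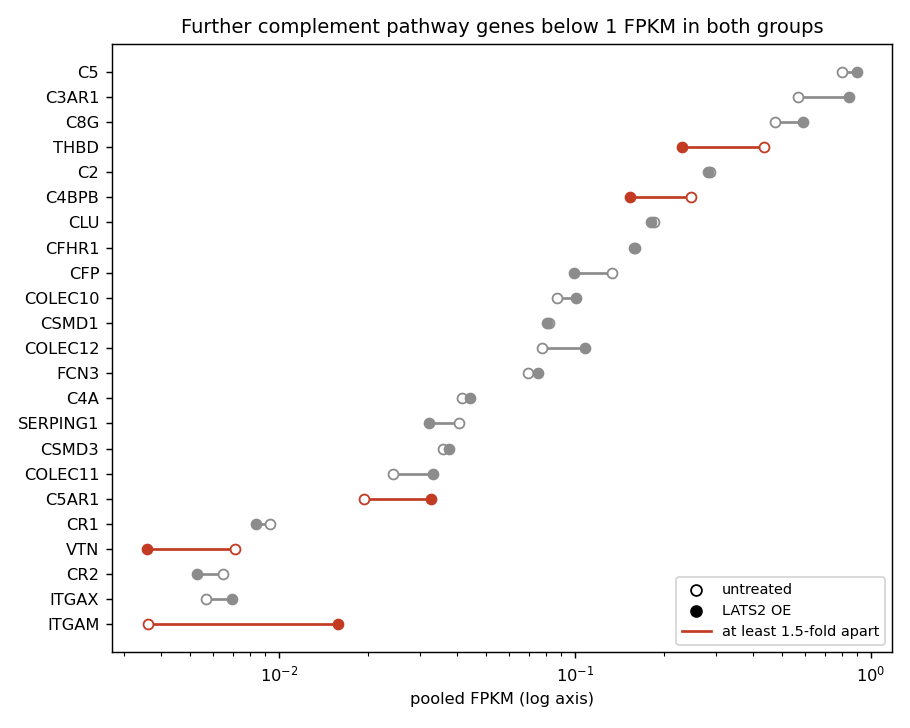
Pooled FPKM of the 23 further complement pathway genes below 1 FPKM in both groups, on a log axis, with open points for Untreated and filled points for LATS2 OE. Red marks the 5 genes at least 1.5-fold apart, namely THBD, C4BPB and VTN with lower and C5AR1 and ITGAM with higher values in LATS2 OE.

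The podocyte label was checked against marker genes. Of 11 podocyte markers, SYNPO, PODXL, CD2AP and ACTN4 stood at 1 FPKM or more in both groups, and WT1 had 0.413 and 0.412 FPKM. NPHS1, which encodes the slit diaphragm protein nephrin of mature podocytes, was nearly absent, at 0.0087 and 0.0062 FPKM. Of 5 leukocyte markers only CD68 reached 1 FPKM, and the other 4 summed to 0.695 FPKM in Untreated and 0.672 FPKM in LATS2 OE, with PTPRC at 0.0023 and 0.0036 FPKM. Of 5 endothelial markers none reached 1 FPKM, and they summed to 0.0944 and 0.0909 FPKM. Of 4 hepatocyte markers only SERPINA1 reached 1 FPKM, and ALB had 0.0341 and 0.0336 FPKM. Of 4 mesangial and stromal markers PDGFRB, ACTA2 and COL1A1 reached 1 FPKM, as did AQP1 of 5 tubular markers. In bulk RNA, fewer cells that express a gene and less of its RNA per cell cannot be told apart.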

How the data were processed

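The transcriptome of 4 LATS2 OE and 4 Untreated samples of 1 AB8/13 podocyte line was measured by single-read sequencing of poly(A) RNA. The authors demultiplexed the reads with bcl2fastq, checked them with FastQC, removed adapters and filtered reads by Trimmomatic 0.33, mapped to hg19 by TopHat, derived FPKM through the Cufflinks package and deposited 1 pooled FPKM value per group and locus. Not given in the sources used here are the TopHat and Cufflinks versions and the annotation behind the loci. Replicates were pooled in the table, it is not stated whether they were separate cultures, and the reads per sample are not stated. The table also holds the authors' own fold changes, statistics, p-values and q-values, which were not used.

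A cell of at least 1 with 4, 5 or 6 digits and a lost decimal point has 1, 2 or 3 possible values. The pair of values with the smallest change was taken, and 11753 of 20636 loci above 0 in both groups kept an open level. By construction the step returns the true ratio of changes under 3.16-fold, while larger changes can be missed or turned. A test across samples had been planned with limma. As the values are pooled, loci at least 1.5-fold apart, without a pseudocount, were counted instead, with no test. Loci were named by the rule of 9 members, LATS2 and the genes of a complement pathway list above 0 in both groups. Other genes named, those at 0 and the MED16 and marker genes, were added to describe the rows and cells. The members were matched by gene name alone, but they, the lists and the thresholds were chosen with earlier results of these data known. Row coordinates are those of the deposited hg19 loci, counted from 1, and strands come from GENCODE lifted to GRCh37. Python 3.11.15, pandas 2.3.3 and matplotlib 3.10.9 were used. Other fold thresholds, a pseudocount, a filter on low values, another scaling and another placing of the points were tried. Some genes of the lists are not reported here.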

Additional observations from a re-analysis of the deposited data

How the results depend on the processing

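No paired analysis was possible because the table holds 1 pooled value per group, and for the same reason no replicate could be left out. The count of complement genes past the threshold, 0 of 9 at 1.5-fold, was 1 at 1.2-fold (CD55) and stayed at 0 at 2-fold, with the ratio divided by the median ratio of all loci, with 1 FPKM or more required in each group, and without rows of several names. The count over the further pathway genes, 5 at 1.5-fold, was 13 at 1.2-fold and 1 at 2-fold. All 13 were among the 23 genes below 1 FPKM in both groups. Of the 8080 loci of that level, 4939 were past 1.2-fold, and the share past 2-fold was not computed. The count over the further pathway genes was 0 with a pseudocount of 1, computed only for loci of known level. It was also 0 with 1 FPKM or more required in each group, since the 5 genes are below 1 FPKM. If the decimal points were placed at the next smallest change, the 8 complement genes of at least 1 FPKM would differ between 8.22-fold and 9.83-fold, and each would take the opposite direction. The ratios, not the levels, carry the results, and the unstated depth per sample and the unknown spread between replicates limit how small a difference can be read.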

Other observations

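Within 500 kb of the 9 rows lay 124 other named loci that reached 1 FPKM in each group. None of them differed by 1.5-fold or more and 8 differed by 1.2-fold or more, with a median log2 ratio of 0.0048. Of all loci of that level, 3.15% differed by 1.5-fold or more and 12.8% by 1.2-fold or more. Near CD55, YOD1, which encodes a deubiquitinase, was 1.25-fold lower with LATS2 (log2 ratio -0.32), and PFKFB2, a regulator of glycolysis, 1.08-fold lower. Near C1R and C1S, LPAR5, a receptor for lysophosphatidic acid, was 1.34-fold higher. Near CFD, FSTL3, which encodes an inhibitor of activin, was 1.28-fold lower, and HCN2, which encodes an ion channel, was 1.31-fold higher. The other 4 were RBP5 and SCARNA12 near C1R and C1S, NOP2 near C1S, and HSPA1B near CFB, which shares reads with a near-identical copy. These values are pooled and were not tested.

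At the regulator cluster itself, CR1L, between CR1 and CD46, had a log2 ratio of -0.06. CR1 and CR2, receptors for C3 fragments, lay between CD55 and CR1L and stood at no more than 0.0093 FPKM in either group.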
